A study of Mus musculus with 12 samples.

Results

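Carbonic anhydrases are enzymes that convert carbon dioxide and water to bicarbonate and a proton, and back again. In skeletal muscle they help to move carbon dioxide out of working fibers, buffer the protons that accompany lactate, and supply bicarbonate to enzymes that use it. Car3 is the abundant cytosolic form of muscle, fat and liver and is known for low catalytic activity, whereas Car2 is a fast cytosolic form that is also abundant in red blood cells. Car4 is anchored to the outer face of the cell membrane, Car14 spans the membrane, Car5b lies in mitochondria, and Car8 is a relative that lacks the enzymatic activity. These 6 genes were chosen by symbol from the 17752 genes of the table, and all 6 were found. Car3 was chosen because its level was lower in libraries labelled strNrip1-/-, so its differences between genotypes are given as a description with no test. Of the 16 carbonic anhydrase symbols looked for, 8 more were listed beyond the 6, and Car6 and Car10 were not analysed here.

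Bulk RNA from the extensor digitorum longus (EDL), a fast-twitch hind limb muscle, was sequenced in 12 libraries in 4 groups of 3. The groups were Ctrl sedentary, Nrip1KO sedentary, Ctrl trained and Nrip1KO trained in the labels, and the genotypes are called labelled WT and labelled strNrip1-/- here. All mice were male and carried a floxed Nrip1 allele (Nrip1 fl/fl, made on C57BL/6J) that was crossed to a C57BL/6JN Cre stock. The labelled strNrip1-/- mice also carried Cre recombinase under the muscle creatine kinase (MCK) promoter, which acts in heart and skeletal muscle and leaves the gene intact in the other cells of the muscle, and their controls were Cre-negative littermates. Nrip1 encodes the transcriptional coregulator RIP140. All mice, sedentary and trained, were 8 weeks old at the start. Per the study's methods, training was voluntary wheel running for 8 weeks, and wheels were taken out before the testing endpoints. Mice that ran little were left out of the study. Levels were deposited as FPKM, fragments per kilobase of transcript scaled by depth. Tests were run with limma on log2(FPKM + 0.5) for the 12744 genes whose mean reached 0.5 FPKM, and a gene was called at a Benjamini-Hochberg adjusted p under 0.05 with a fold change above 1.2. Of the 6 genes 5 passed this filter, and Car5b did not.

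The level of the targeted gene ran against the labels. Nrip1 was at 2.53 to 4.76 FPKM in the 6 libraries labelled WT and at 14.9 to 20.7 FPKM in the 6 labelled strNrip1-/-, and every genotype direction below rests on the labels. The floxed stretch holds the last exon with the whole coding sequence, while a value for the whole gene also counts the exons before it and does not show which ones were read. In the same libraries Actn3, a fast fiber gene, was at 3063 to 3629 FPKM in those labelled WT and 1696 to 1962 FPKM in those labelled strNrip1-/-, and Mb, the myoglobin gene, was at 2099 to 3448 and 3682 to 5621 FPKM. Both were named because they were called between the labelled genotypes in these data. Of all genes tested, 3.23% were lower and 2.97% higher without overlap. Median log2 fold changes were -0.33 (sedentary) and -0.31 (trained) over 10 fast fiber genes. Over 10 slow fiber genes they were -0.20 and -0.32. Whether any labels were exchanged was not tested. The libraries corresponded to about 20.1 to 29.2 M fragments, estimated from the spacing of low values. Fast fiber genes summed to 99503 to 157912 FPKM, against 161 to 799 FPKM for slow fiber genes, as the label EDL would have it. The slow sum was highest in sedentary labelled WT replicate 2, sedentary labelled strNrip1-/- replicate 1 and trained labelled WT replicate 2, at 489.5, 493 and 799 FPKM. Trained labelled strNrip1-/- replicate 2, which is not in this set of 3, came next at 398 FPKM. Adipoq, which fat cells secrete, was highest in sedentary labelled strNrip1-/- replicate 3, trained labelled WT replicate 3 and trained labelled strNrip1-/- replicate 3, at 10.3, 7.71 and 6.58 FPKM. Car3 genotype values, counts of genes called and lost calls are given below without these sets of 3 libraries as well. Each library held one muscle preparation of many cells, so a lower level can mean fewer cells of a type or less RNA per cell, and these cannot be told apart. Nothing in the labels says which libraries came from separate animals, so the p-values measure the spread between these libraries, which may be technical.

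The family shares a zinc-binding active site, and the part of the coding sequence that carries it shows how Car2, Car3, Car4, Car14 and Car5b compare. Each stretch below is 33 bases of the GRCm38 genome, read in the direction of the gene with the annotation of GENCODE release 21 for mouse (M21), and all 5 lie in a single exon of coding sequence. Capitals mark the codons that align with those of the first and second zinc-binding histidines of Car2, codons 94 and 96.
Car2: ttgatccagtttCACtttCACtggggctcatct
Car3: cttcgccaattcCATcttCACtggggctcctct
Car4: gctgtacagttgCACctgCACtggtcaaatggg
Car14: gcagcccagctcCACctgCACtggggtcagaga
Car5b: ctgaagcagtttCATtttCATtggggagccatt
Both marked codons, and the codon aligned with the third zinc ligand, encode histidine in all 5 of these genes. The stretches lie at chr3:14895057-14895089 (Car2, plus strand), chr3:14866838-14866870 (Car3, plus strand), chr11:84964155-84964187 (Car4, plus strand), chr3:95900297-95900329 (Car14, minus strand) and chrX:163991402-163991434 (Car5b, minus strand).

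Car3 and Car2 are neighbours on chromosome 3. Car3 (ENSMUSG00000027559) runs from 14863512 to 14872523 and Car2 (ENSMUSG00000027562) from 14886273 to 14900770, both on the plus strand, with 13749 bases between them. Car1, on the minus strand, ends 55143 bases before Car3, and Car13 lies beyond Car1. Reads are unlikely to be shared on the basis of sequence, since the annotated transcripts of no pair among the 16 family genes held an identical run longer than 32 bases, and Car3 shared at most 28 with any other. The library kit did not keep strand, however, and 445 of the 2543 exonic bases of Car14 overlap exons of Aph1a, a gamma-secretase subunit gene on the other strand, so reads there cannot be told apart. No exon of Car2, Car3, Car4, Car5b or Car8 overlapped that of another annotated gene.

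FPKM is scaled by transcript length, so levels can be set beside each other across genes. Averaged over the 12 libraries, Car3 was at 198 FPKM, Car14 at 30.0, Car4 at 8.00, Car2 at 6.55, Car8 at 1.996 and Car5b at 0.368 FPKM. Car3 lay above Car14, Car14 above Car4, Car2 above Car8 and Car8 above Car5b in 12 of 12 libraries each. Car4 and Car2 were the neighbours whose order did not hold, with Car4 higher in 9 of 12 libraries. The 3 exceptions are visible in the single values below: Car2 exceeded Car4 in sedentary labelled strNrip1-/- replicates 1 and 3 and in trained labelled strNrip1-/- replicate 1.

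**Figure D1:**
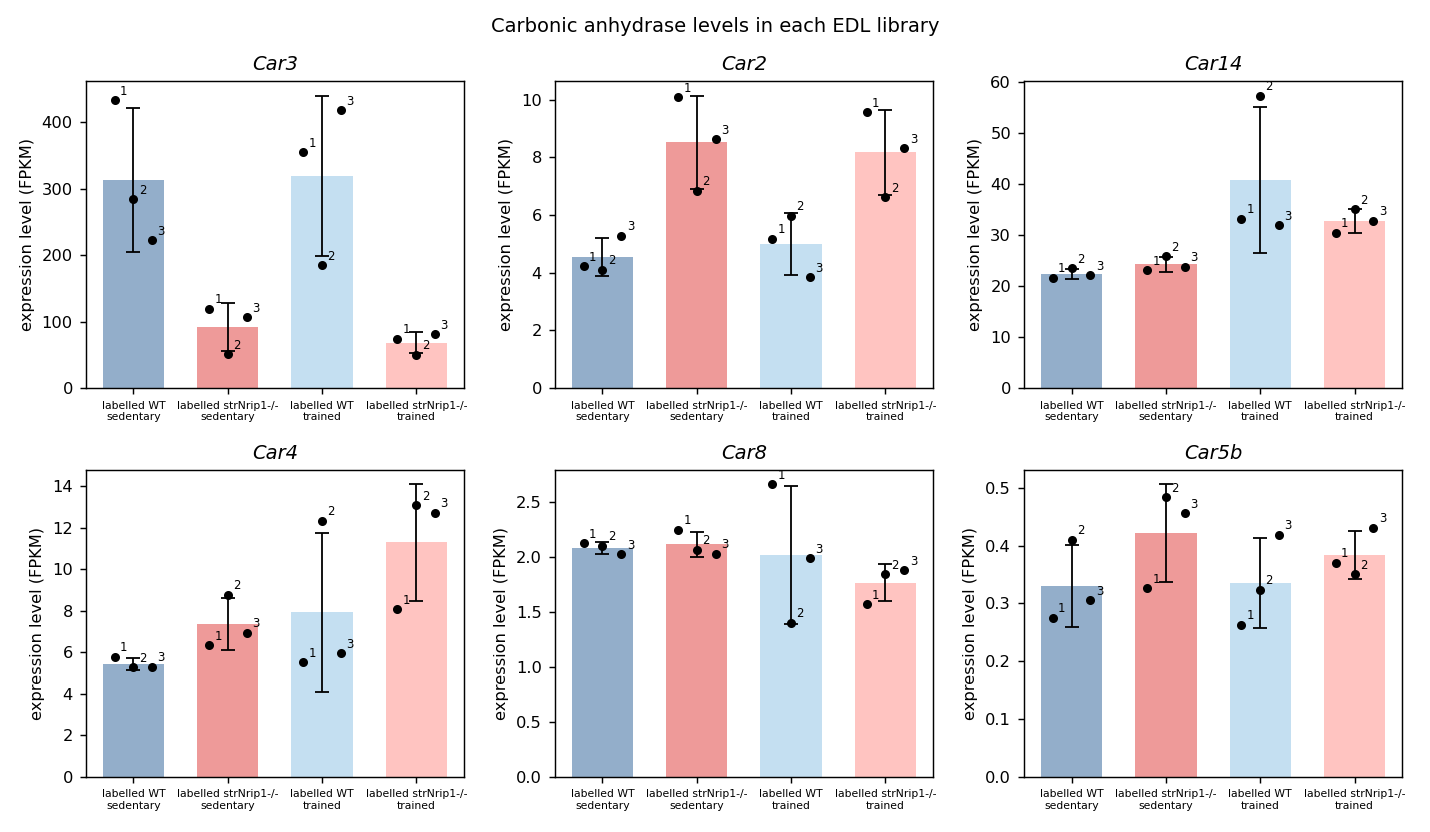
Level of each of the 6 carbonic anhydrase genes (FPKM, linear axes that start at 0) in the 4 groups. Bars are means, error bars SD (n = 3), and points are single libraries with their replicate number. Car3 is lower in both labelled strNrip1-/- groups (50.01 to 119.4 FPKM) than in both labelled WT groups (185 to 434 FPKM), Car2 is higher in them, and Car14 is higher in both trained groups.

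Car3, the main carbonic anhydrase of the muscle cytosol, was at 434, 284 and 222 FPKM in the sedentary labelled WT libraries and at 119.4, 50.8 and 106 FPKM in the sedentary labelled strNrip1-/- libraries. In trained mice it was at 355, 185 and 418 FPKM in labelled WT and at 74.0, 50.01 and 81.0 FPKM in labelled strNrip1-/- libraries. The highest of the 6 labelled strNrip1-/- libraries lay below the lowest of the 6 labelled WT libraries, a pattern that held for 3.23% of all genes tested in this direction and for which Car3 was chosen. Group means were 313 ± 109 and 92.1 ± 36.4 FPKM in sedentary and 319 ± 121 and 68.3 ± 16.2 FPKM in trained libraries (SD, n = 3 each). The means thus differed 3.40-fold and 4.68-fold, and the log2 fold changes were -1.80 and -2.16 (SE 0.382 each). Over the 22 alternative ways of processing each value stayed between -2.07 and -1.42 in sedentary and between -2.52 and -1.93 in trained libraries. Car3 varied widely within groups, with a coefficient of variation of 34.7% and 37.8% in the labelled WT groups and 39.5% and 23.8% in the labelled strNrip1-/- groups.

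What the choice of Car3 did not use was its response to training. In labelled WT libraries the trained and sedentary values overlapped, with a log2 change of 0.00 (SE 0.382, 95% interval -0.84 to 0.84, limma adjusted p = 0.9997). That sign turned negative in 6 of the 22 alternatives, none of them called. In labelled strNrip1-/- libraries the values overlapped as well, at -0.37 (SE 0.382, interval -1.20 to 0.47, limma adjusted p = 0.750). The interaction, which is the training effect in labelled strNrip1-/- minus that in labelled WT, was -0.37 (SE 0.540, interval -1.55 to 0.82, limma adjusted p = 0.905). These intervals still include changes of up to 1.79-fold in either direction in labelled WT, so small effects of training on Car3 were not detectable with 3 libraries a group.

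Because Car3 made up most of the summed level of the 6 genes, the sum followed it. Car3 took 92.7%, 88.9% and 86.4% of the sum in sedentary labelled WT and 88.4%, 70.5% and 90.5% in trained labelled WT libraries. It took 74.0%, 53.6% and 71.7% in sedentary labelled strNrip1-/- and 59.7%, 46.8% and 59.1% in trained labelled strNrip1-/- libraries. The 6-gene sum was 348 ± 108 FPKM in sedentary labelled WT, 135 ± 35.2 FPKM in sedentary labelled strNrip1-/-, 375 ± 103 FPKM in trained labelled WT and 123 ± 15.1 FPKM in trained labelled strNrip1-/- libraries (SD, n = 3 each). Without Car3 the other 5 genes summed to 34.8 ± 0.704, 42.6 ± 1.21, 56.0 ± 18.5 and 54.3 ± 3.81 FPKM in the same order. The lower 6-gene sum in libraries labelled strNrip1-/- thus restates the Car3 values. Even at its lowest Car3 ranked 1374th among all 17752 genes of a library, and at its highest 158th.

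**Figure D2:**
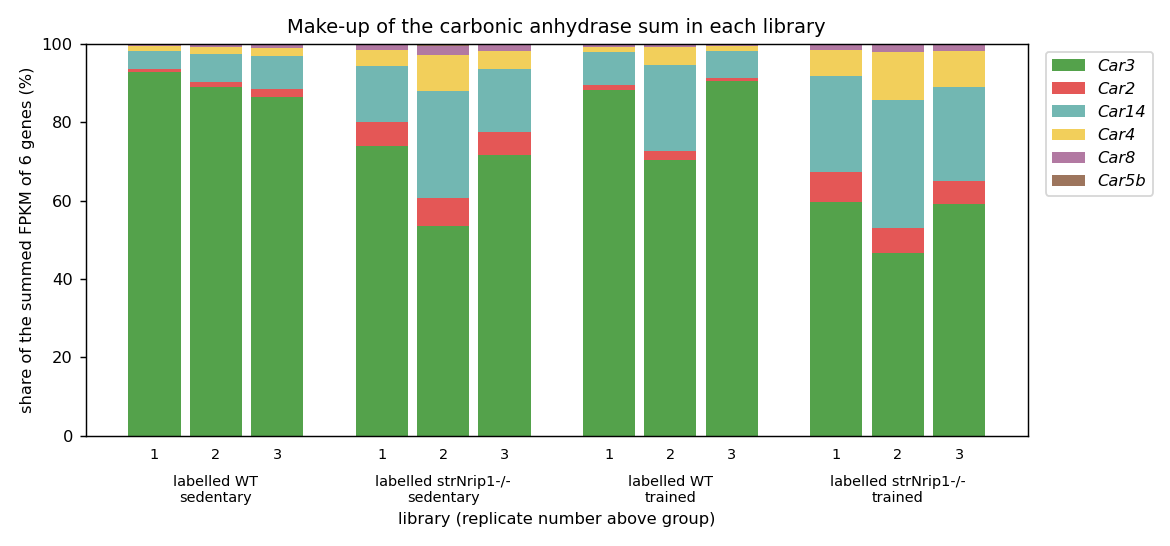
Share (%) of each of the 6 genes in their summed FPKM, 1 bar for each of the 12 libraries, grouped by labelled genotype and training. Car3 takes 70.5% to 92.7% in libraries labelled WT and 46.8% to 74.0% in those labelled strNrip1-/-, where Car14, Car2 and Car4 take larger shares.

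Car2, the fast cytosolic enzyme encoded next to Car3, went the other way. It was at 4.23, 4.09 and 5.28 FPKM in sedentary labelled WT and at 10.1, 6.84 and 8.63 FPKM in sedentary labelled strNrip1-/- libraries. In trained libraries it was at 5.18, 5.97 and 3.83 FPKM in labelled WT and at 9.57, 6.61 and 8.32 FPKM in labelled strNrip1-/-. All 6 labelled strNrip1-/- libraries lay above all 6 labelled WT libraries, which 2.97% of the genes tested did in this direction. The sedentary means, 4.53 ± 0.649 and 8.51 ± 1.62 FPKM (SD, n = 3 each), differed 1.88-fold, with a log2 change of 0.83 (SE 0.186, 95% interval 0.42 to 1.24, limma adjusted p = 0.0343), and Car2 was called. The trained means, 4.99 ± 1.08 and 8.17 ± 1.48 FPKM, differed 1.64-fold, and the log2 change of 0.66 (SE 0.186, interval 0.25 to 1.07, limma adjusted p = 0.0611) was not past the threshold. The effect of genotype was not shown to differ between sedentary and trained mice (interaction -0.17, SE 0.263, interval -0.75 to 0.41, limma adjusted p = 0.912). Training itself gave 0.11 in labelled WT and -0.06 in labelled strNrip1-/- libraries (SE 0.186 each, limma adjusted p = 0.916 and 0.938), and both signs turned in some alternatives.

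The sedentary call of Car2 depended on single libraries. It was lost without any of sedentary labelled WT replicates 1, 2 and 3, sedentary labelled strNrip1-/- replicates 1 and 3, or trained labelled strNrip1-/- replicate 3 (limma adjusted p between 0.0558 and 0.126), and the log2 fold change then ranged from 0.71 to 0.94. In trained libraries Car2 was called without trained labelled WT replicate 2 or sedentary labelled strNrip1-/- replicate 2 (limma adjusted p = 0.0470 and 0.0476). Car2 is also a red blood cell gene, and the 5 blood genes in the table summed to 753 to 1811 FPKM in sedentary labelled WT, 850 to 1834 in sedentary labelled strNrip1-/-, 723 to 863 in trained labelled WT and 808 to 1444 FPKM in trained labelled strNrip1-/- libraries. None of the 5 was called in either genotype comparison. Within the sedentary labelled strNrip1-/- group Car2 was lowest, at 6.84 FPKM, in replicate 2, where the blood sum was highest at 1834 FPKM. The lowest Car2 and the highest blood sum also met in sedentary labelled WT replicate 2, at 4.09 and 1811 FPKM. They met in trained labelled WT replicate 3 as well, at 3.83 and 863 FPKM. In the trained labelled strNrip1-/- group replicate 1 had both the highest Car2, at 9.57 FPKM, and the highest blood sum, at 1444 FPKM. The part of red blood cells in the Car2 values was not tested.

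Of the 4 genes tested besides Car3, only Car2 was called between genotypes in sedentary libraries, where 3.51% of the 12744 genes were called, and none was called in trained libraries, where 5.98% were. No gene of the table was called for training in labelled WT, for training in labelled strNrip1-/- or for the interaction (0% each with limma), although 1061, 1544 and 989 genes had an unadjusted p under 0.05. Averaging the training effect over both genotypes, an alternative added after these counts were seen, called 0.118% of genes, 15 in all, and no carbonic anhydrase among them.

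**Figure D3:**
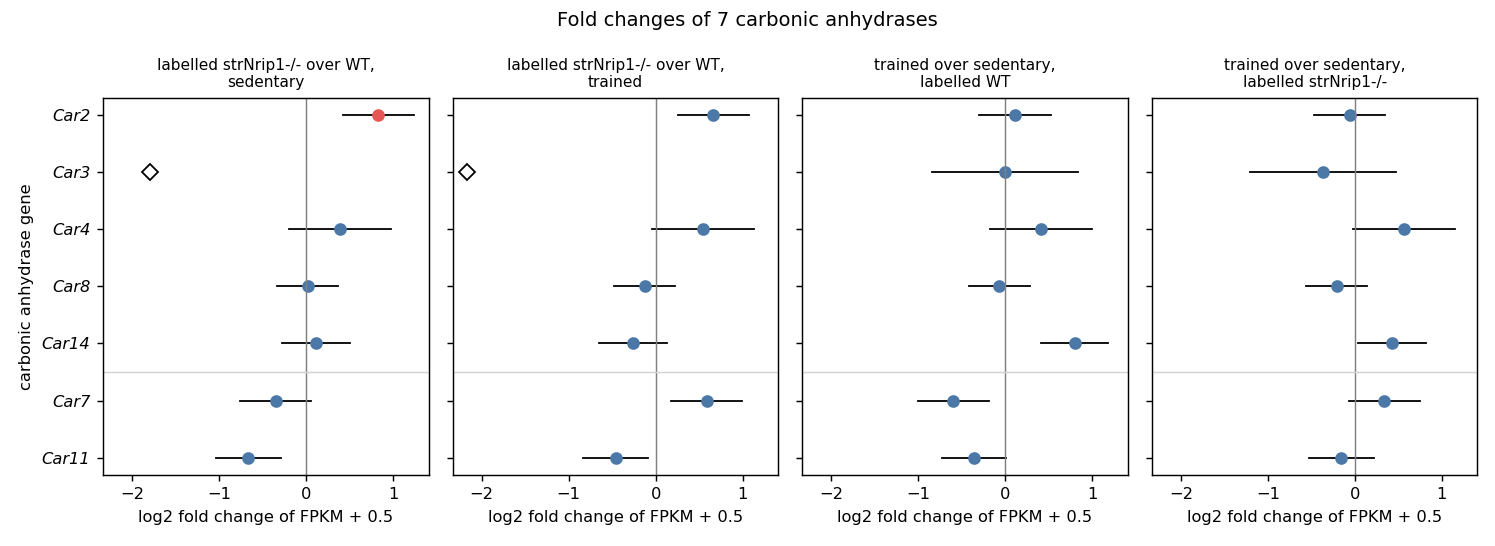
Log2 fold changes of FPKM + 0.5 for 7 carbonic anhydrases, with the chosen genes above the grey line and Car7 and Car11 below it, in 4 comparisons. Points are estimates and lines 95% intervals from limma, red marks a call and blue no call, and open diamonds give the Car3 genotype values with no interval because Car3 was chosen for them. Car2 in sedentary libraries, at 0.83, is the only red point.

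Car14, the membrane-spanning enzyme with its active site facing outward, was higher in trained than in sedentary libraries of both labelled genotypes, short of the threshold. It was at 21.6, 23.5 and 22.1 FPKM in sedentary labelled WT and at 33.1, 57.3 and 31.8 FPKM in trained labelled WT libraries. In labelled strNrip1-/- libraries it was at 23.1, 25.9 and 23.8 FPKM in the sedentary state and at 30.4, 35.0 and 32.7 FPKM when trained. All 6 trained libraries lay above all 6 sedentary libraries, a pattern that 0.377% of the genes tested (48 genes) showed in this direction. Means went from 22.4 ± 0.992 to 40.8 ± 14.3 FPKM in labelled WT and from 24.2 ± 1.46 to 32.7 ± 2.33 FPKM in labelled strNrip1-/- libraries (SD, n = 3 each). The log2 fold changes were 0.80 (SE 0.177, interval 0.41 to 1.19, limma adjusted p = 0.351) and 0.43 (SE 0.177, interval 0.04 to 0.81, limma adjusted p = 0.376), neither past the threshold over all genes. Averaged over both genotypes the value was 0.61 (SE 0.125, interval 0.34 to 0.89, limma adjusted p = 0.0996).

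Labelled WT trained replicate 2, at 57.3 FPKM the highest Car14 value and also the library with the highest slow fiber sum, weighed on these values. Without it the labelled WT training effect was 0.53 and the averaged effect 0.48, and the latter was then called (SE 0.0564, limma adjusted p = 0.0244). The averaged effect was also called without trained labelled WT replicate 1 (0.67, limma adjusted p = 0.0295), and was not called without any of the other 10 libraries. Genotype effects on Car14 were 0.11 in sedentary and -0.26 in trained libraries (SE 0.177 each, limma adjusted p = 0.841 and 0.449). The first turned to -0.04 after each library was scaled to one common sum, against a shift of -0.14 in the median of all genes, and the second to 0.01 without trained labelled WT replicate 2. Aph1a, which shares exonic bases with Car14, was at 22.3 to 26.0 FPKM in sedentary and 20.8 to 28.0 FPKM in trained libraries, and its averaged training effect was 0.08 (SE 0.0689, limma adjusted p = 0.725).

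Car4, the membrane-anchored enzyme found on muscle capillaries and fibers, showed no call in any comparison. It was at 5.78, 5.27 and 5.29 FPKM in sedentary labelled WT, 6.33, 8.77 and 6.94 FPKM in sedentary labelled strNrip1-/-, 5.50, 12.3 and 5.94 FPKM in trained labelled WT and 8.06, 13.1 and 12.7 FPKM in trained labelled strNrip1-/- libraries. The sedentary genotype groups did not overlap, which held for 9.79% of the genes tested in this direction, but the trained ones did, through the 12.3 FPKM of trained labelled WT replicate 2. Genotype log2 fold changes were 0.39 and 0.54 and training log2 fold changes 0.41 in labelled WT and 0.57 in labelled strNrip1-/- libraries (SE 0.267 each, limma adjusted p between 0.277 and 0.737). Without trained labelled WT replicate 2 the trained genotype value was 0.89 and was called (limma adjusted p = 0.0285). The summed level of 10 endothelial markers was also higher in libraries labelled strNrip1-/-, at 171 to 201 FPKM against 147 to 170 FPKM in those labelled WT. Of these 10 genes, 10 in sedentary and 9 in trained libraries had a positive log2 fold change. Tie1, an endothelial receptor, was the only one called, in trained libraries, where 5.98% of all genes were (0.42, limma adjusted p = 0.0125). That call was lost without trained labelled WT replicate 3 or trained labelled strNrip1-/- replicate 3. The part of endothelial cells in the Car4 values was not tested.

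Car8, the relative without enzymatic activity, overlapped between the labelled genotypes in both the sedentary and the trained state. It was at 2.12, 2.10 and 2.02 FPKM in sedentary labelled WT, 2.25, 2.07 and 2.03 FPKM in sedentary labelled strNrip1-/-, 2.66, 1.40 and 1.99 FPKM in trained labelled WT and 1.57, 1.85 and 1.88 FPKM in trained labelled strNrip1-/- libraries. In labelled strNrip1-/- libraries the trained values all lay below the sedentary ones, as they did for 7.5% of the genes tested. These levels correspond to about 127 to 239 fragments per library on its single annotated transcript. No comparison passed the threshold (log2 fold changes of 0.02 and -0.12 for genotype in sedentary and trained libraries, -0.07 and -0.21 for training in labelled WT and labelled strNrip1-/-, SE 0.161 each, limma adjusted p between 0.641 and 0.976), and the intervals, within -0.56 and 0.37, exclude a 1.5-fold rise in any of them.

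Car5b, the mitochondrial form, averaged 0.330 ± 0.0709 FPKM in sedentary labelled WT, 0.422 ± 0.0843 in sedentary labelled strNrip1-/-, 0.335 ± 0.0786 in trained labelled WT and 0.384 ± 0.0418 FPKM in trained labelled strNrip1-/- libraries (SD, n = 3 each). Single values ran from 0.263 to 0.484 FPKM and the groups overlapped in every comparison. A transcript of 2 kb with 3 fragments would be at 0.0628 to 0.0908 FPKM, so Car5b was above that level in all 12 libraries but too low for the test as set.

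Among the other carbonic anhydrases, 8 were listed and 4 tested, and none was called in any comparison. Car11, another relative without enzymatic activity, was lower in labelled strNrip1-/- libraries when sedentary, at 4.98, 4.84 and 5.91 FPKM against 9.71, 7.92 and 8.15 FPKM, with a log2 change of -0.66 (SE 0.169, interval -1.04 to -0.29, limma adjusted p = 0.0587). In trained libraries it was at 3.64, 6.24 and 4.37 FPKM against 6.68, 5.70 and 7.39 FPKM, a log2 change of -0.46 (SE 0.169, limma adjusted p = 0.144). The sedentary value was called without trained labelled strNrip1-/- replicate 1 or 2 (limma adjusted p = 0.0426 and 0.0241), and the trained value without replicate 2 of that group (-0.65, limma adjusted p = 0.0436).

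Car7, a cytosolic form best known from neurons and also present in muscle, had opposite signs of training in the labelled genotypes. It was at 1.21, 1.21 and 1.55 FPKM in sedentary labelled WT and 0.978, 0.619 and 0.552 FPKM in trained labelled WT libraries, a log2 change of -0.60 (SE 0.186, limma adjusted p = 0.455). In labelled strNrip1-/- libraries it was at 1.17, 0.767 and 0.877 FPKM when sedentary and 1.35, 0.995 and 1.64 FPKM when trained, a log2 change of 0.34 (SE 0.186, limma adjusted p = 0.501). The interaction of 0.94 (SE 0.263, interval 0.36 to 1.51) had an unadjusted p of 0.00437 with limma and an adjusted p of 0.550, so it did not pass over all genes. These values rest on about 25.4 to 74.4 fragments per library.

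The remaining listed members were low. Car9, a membrane form induced by low oxygen, was at 0.234 to 1.53 FPKM and Car15 at 0.0767 to 1.36 FPKM, and neither was called. Exons of Car15 share 1253 bases with Gm20518 on the same strand, so its value is uncertain. Car5a, the liver mitochondrial form, was at 0.0429 to 0.787 FPKM, Car13 at 0.177 to 0.349 FPKM and Car12 at 0 to 0.192 FPKM. Car1, the other red blood cell form, was between 0 and 0.143 FPKM in 11 libraries and at 1.07 FPKM in trained labelled WT replicate 2, where the blood sum was 768 FPKM.

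Genes that work with carbonic anhydrases were described from lists that also cover members without a change. Of 6 bicarbonate transporters tested, the SLC4 and SLC26 carriers that move bicarbonate across membranes, none was called in any comparison (median log2 fold changes -0.04 and -0.13 for genotype in sedentary and trained libraries, against -0.00 and 0.01 over all genes). Of 11 proton and lactate transporters none was called in sedentary libraries (3.51% of all genes) and 1 in trained libraries (5.98%). This was Slc16a3, which encodes the lactate exporter MCT4 of fast fibers, and it was lower in labelled strNrip1-/- libraries, at 163, 138 and 144 FPKM against 233, 287 and 225 FPKM (log2 fold change -0.74, SE 0.139, limma adjusted p = 0.0114). That call was lost without trained labelled strNrip1-/- replicate 2 or 3 (limma adjusted p = 0.0533 and 0.0514).

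Enzymes that take up bicarbonate as a substrate, the biotin carboxylases and Cad, numbered 8. None was called in sedentary libraries, and 2 were called as higher in trained libraries labelled strNrip1-/-. Over all genes 3.51% and 5.98% were called in the same comparisons. Pccb, a subunit of propionyl-CoA carboxylase, was at 173, 194 and 197 FPKM against 109, 132 and 121 FPKM (log2 fold change 0.64, SE 0.121, limma adjusted p = 0.0118). Mccc2, a subunit of methylcrotonyl-CoA carboxylase, was at 22.0, 25.7 and 24.2 FPKM against 20.2, 18.5 and 17.3 FPKM (log2 fold change 0.35, SE 0.0818, limma adjusted p = 0.0300). The Pccb call was lost without trained labelled WT replicate 1 or trained labelled strNrip1-/- replicates 2 or 3, with limma adjusted p of up to 0.0566. The Mccc2 call was lost without trained labelled WT replicates 2 or 3 or trained labelled strNrip1-/- replicates 2 or 3, with limma adjusted p of up to 0.118. The medians of the 8 log2 fold changes were 0.27 in sedentary and 0.16 in trained libraries, against -0.00 and 0.01 over all genes.

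Car3 is abundant in slow fibers and in fat cells, so the markers of both were set beside it. Of 10 slow fiber genes none was called, with median log2 fold changes of -0.20 and -0.32 in sedentary and trained libraries. The slow sum was 167 to 489.5 FPKM in sedentary labelled WT, 197 to 493 in sedentary labelled strNrip1-/-, 161 to 799 in trained labelled WT and 243 to 398 FPKM in trained labelled strNrip1-/- libraries, so the groups overlapped. The highest slow sum, 799 FPKM, was in the trained labelled WT library with the lowest Car3 of that group, 185 FPKM. In trained labelled strNrip1-/- libraries, too, the highest slow sum, 398 FPKM, was in the library with the lowest Car3, 50.01 FPKM. In sedentary labelled WT libraries the highest slow sum, 489.5 FPKM, was in the library with the middle Car3 value, 284 FPKM. In sedentary labelled strNrip1-/- libraries the highest slow sum, 493 FPKM, was in the library with the highest Car3, 119.4 FPKM. Without the 3 libraries high in slow fiber markers the Car3 log2 fold changes were -2.07 and -2.52, given as a description since Car3 was chosen for these differences. The part of slow fibers in the Car3 values was not tested.

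Fast fiber genes were called as lower in libraries labelled strNrip1-/- for 1 of 10 in sedentary and 2 of 10 in trained libraries. Over all genes 3.51% and 5.98% were called in either direction. The medians of the 10 log2 fold changes were -0.33 and -0.31, against -0.00 and 0.01 over all genes. Actn3, which encodes the alpha-actinin of fast fibers, fell by 0.90 and 0.75 on the log2 scale (limma adjusted p = 2.52e-04 and 8.17e-04), and Myl1, a fast myosin light chain gene, fell by 0.67 in trained libraries (limma adjusted p = 0.0229, lost without trained labelled WT replicate 2 or trained labelled strNrip1-/- replicates 2 or 3). Of 8 general skeletal muscle markers Mb, which encodes the oxygen carrier myoglobin, was the only one called, higher by 0.86 and 0.76 (limma adjusted p = 0.0314 and 0.0390). The medians of these 8 log2 fold changes were -0.11 in sedentary and 0.08 in trained libraries, with 2 and 4 of the 8 above 0. The Mb calls were lost in 5 and 7 of the 12 leave-one-out fits, with limma adjusted p of up to 0.134 and 0.135.

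The summed level of fat cell markers was not lower in libraries labelled strNrip1-/-. The 10 adipocyte genes, dominated by Fabp4, summed to 172 to 216 FPKM in sedentary labelled WT, 233 to 356 in sedentary labelled strNrip1-/-, 210 to 250 in trained labelled WT and 223 to 339 FPKM in trained labelled strNrip1-/- libraries. Adipoq, Plin1 and Cidec, the defining markers, were above 0 in all 12 libraries, at 0.791 to 10.3, 0.865 to 7.86 and 0.978 to 8.32 FPKM. Of 7 adipocyte genes tested 7 had a positive genotype log2 fold change in both comparisons, with medians of 0.99 and 0.23, and none was called. The 3 libraries called high in adipocyte markers are those with the highest Adipoq. By the 10-gene sum sedentary labelled strNrip1-/- replicate 2, which was kept, stood at 267 FPKM, above trained labelled WT replicate 3 at 250 FPKM. Without these 3 libraries the Car3 values were -1.95 and -2.07, again a description. The part of fat cells in the Car3 values was not tested.

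**Figure D4:**
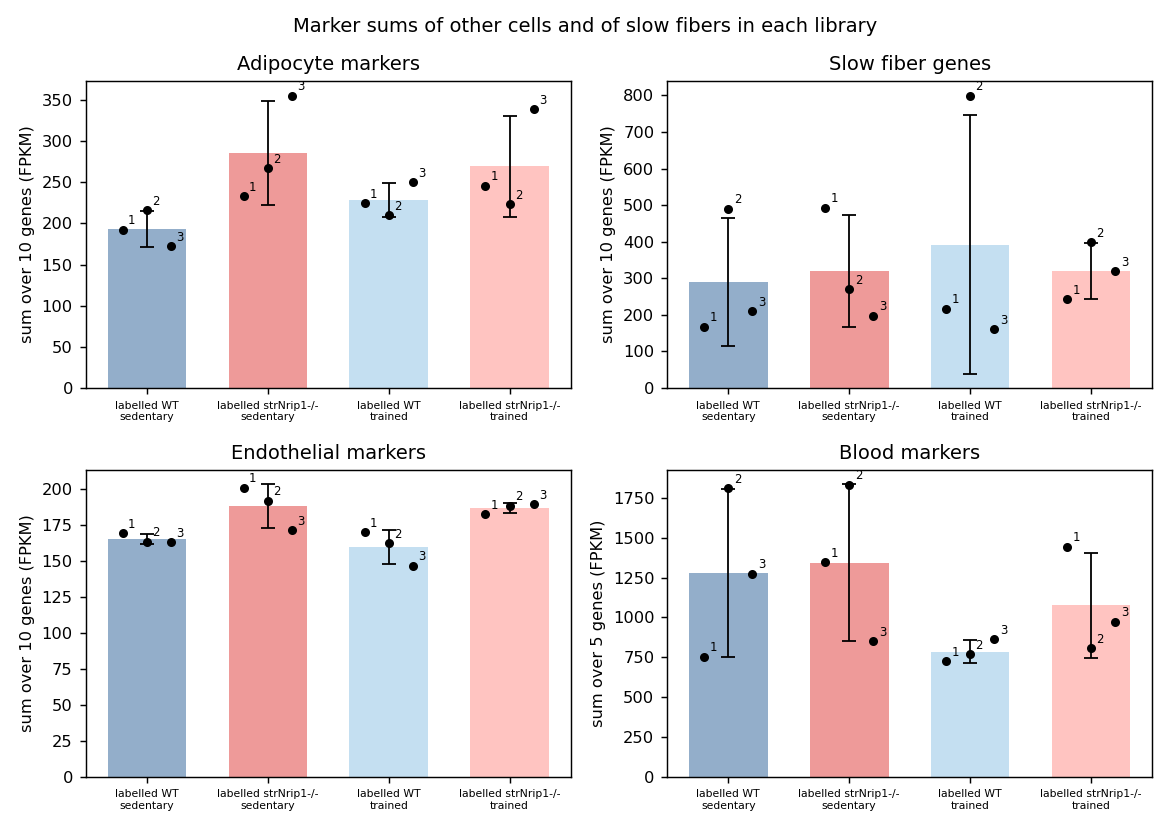
Summed FPKM of marker genes of fat cells, slow fibers, endothelium and blood in the 4 groups (linear axes that start at 0, bars are means, error bars SD with n = 3, points are libraries with their replicate number). Slow fiber genes reach 799 FPKM in trained labelled WT replicate 2, the adipocyte sum is not lower in labelled strNrip1-/- groups, and the endothelial sum is higher in them.

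Few markers of the remaining cell types were called, beside 3.51% of all genes in the sedentary and 5.98% in the trained genotype comparison. Of 8 Schwann cell markers Cnp was called, lower by 0.49 in sedentary libraries labelled strNrip1-/- (limma adjusted p = 0.0410, lost in 9 of the 12 leave-one-out fits, with p of up to 0.134). None of 8 macrophage markers was called in any comparison. None of 8 fibroblast and tendon markers was called between genotypes or for training in a single genotype, but Col1a1, a collagen gene, was higher with training when averaged over both genotypes (0.71, SE 0.0928, limma adjusted p = 0.0227). Averaged training called 0.118% of all genes, and the median of the 8 was 0.04, with 5 above 0. For training in labelled WT and labelled strNrip1-/- the medians were 0.27 and -0.17, with 7 and 1 of the 8 above 0. The Col1a1 call was lost in 5 of the 12 leave-one-out fits, with p of up to 0.0893.

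The genes most like Car3 across the 12 libraries were named by their Pearson correlation with it on the log2(FPKM + 0.5) scale, over all genes tested. They were Lmod1 (r = 0.970), Klhl31 (0.968), Arcn1 (0.968), Me1 (0.967) and Gnptab (0.959). Lmod1 encodes an actin filament nucleator, Klhl31 a kelch-like protein of muscle, Arcn1 a subunit of the coatomer, Me1 the cytosolic malic enzyme and Gnptab an enzyme that tags lysosomal proteins. These values are a description, since all genes share the libraries and any gene that differs between the labelled genotypes in the direction of Car3 scores high. Lmod1 was at 3.21, 3.33 and 2.63 FPKM in sedentary labelled WT, 2.07, 1.35 and 1.85 in sedentary labelled strNrip1-/-, 2.93, 2.55 and 3.43 in trained labelled WT and 1.93, 1.51 and 1.58 FPKM in trained labelled strNrip1-/- libraries. Once the group means were removed, the highest values belonged to Dym (0.948), Gnptab (0.946), Tmem127 (0.934), Flrt1 (0.929) and Gprc5c (0.926), so Gnptab was in both lists.

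The single gene most like each other member over the 12 libraries was Tmem65 for Car2 (r = 0.946), Lims2 for Car4 (0.950), Pdgfrl for Car14 (0.948) and Ube2n-ps1, a pseudogene that can share reads with its parent, for Car8 (0.923). After group means were removed these were Tmem177 for Car2 (0.972), AL824709.1 for Car4 (0.977), Actc1, a cardiac actin gene, for Car14 (0.964) and Rnf122 for Car8 (0.966). In trained labelled WT replicates 1, 2 and 3 Actc1 was at 140, 1319 and 125 FPKM and AL824709.1 at 2.20, 6.79 and 2.65 FPKM. Car14 and Car4 were also highest of that group in replicate 2, the library with the highest slow fiber sum. The correlations were not computed without it. No member was the gene most like another. In the plot of gene pairs, the Car2 and Car3 points formed a labelled WT cloud with high Car3 and low Car2 and a labelled strNrip1-/- cloud with the reverse. Their correlation was -0.77 over the 12 libraries, which includes the genotype difference for which Car3 was chosen. Once group means were removed it was 0.05.

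**Figure D5:**
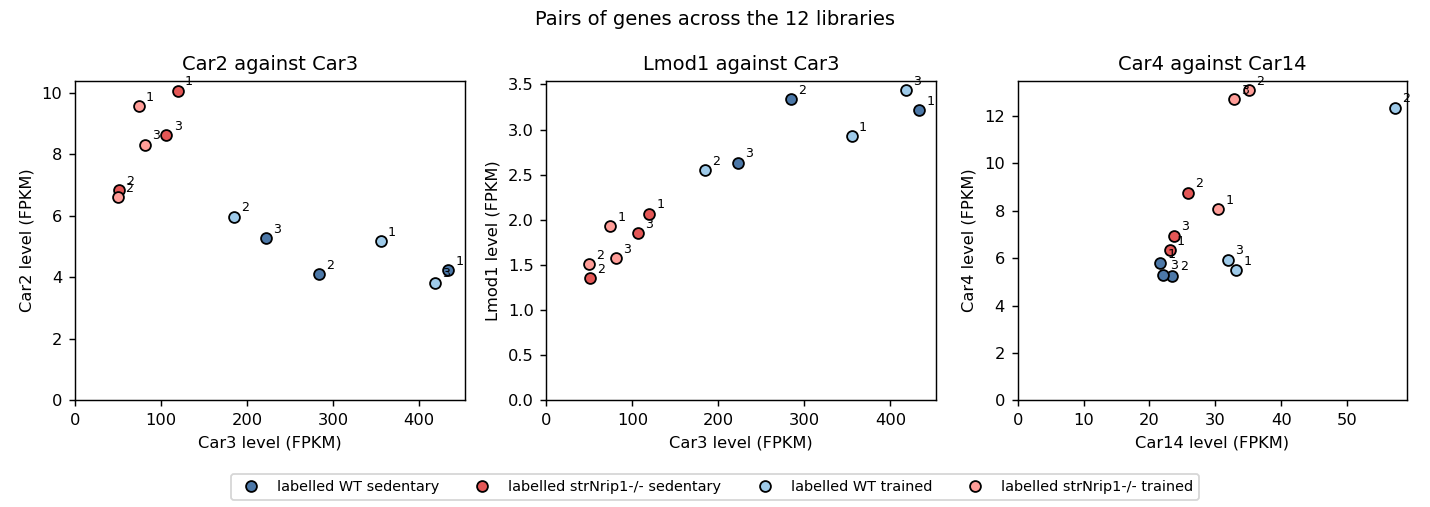
Levels (FPKM, linear axes) of Car2 and of Lmod1 against Car3, and of Car4 against Car14, 1 point per library colored by group with its replicate number. The 6 labelled strNrip1-/- libraries lie at Car3 below 120 FPKM with the higher Car2 values, Lmod1 follows Car3 (r = 0.970 on the log2 scale), and trained labelled WT replicate 2 has the highest Car14 (57.3 FPKM) with a Car4 of 12.3 FPKM.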

How the data were processed

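RNA-seq of 12 EDL libraries was analysed from the table the authors deposited. Per the labels, RNA was treated with DNase and libraries were made with the NEBNext Ultra RNA kit, which does not mark strand. Per the labels and the study's methods, reads were quantified with Salmon (v1.10.2) against mm10, summed to genes with tximport and tested by the authors with DESeq2 (v1.44.0). FPKM values were deposited for 17752 genes, and the function that gave them is not given in the sources used here. The log2 fold changes and the adjusted p-values of 4 comparisons, which the authors deposited in the same table, were not used.

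FPKM was transformed to log2(FPKM + 0.5), which understates the change of low genes. Genes whose mean reached 0.5 FPKM were fitted with limma (v3.58.1 in R 4.3.3), with 4 group means and a mean-dependent prior, two-sided, with Benjamini-Hochberg adjustment over 12744 genes. The interaction was called on the adjusted p alone. The script was tested on simulated data. Depth was estimated from 1613 genes with 1 transcript over 1500 bases, where at least 99.1% of low values lay within 0.15 of whole fragments (30% by chance). The level given by 3 fragments covers counting error only. Replicates shared no identical values above 0 and differed by more than counting noise.

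The alternatives were pseudocounts of 0.1 and 1, no filter, a mean of at least 5 FPKM, rescaling to the same sum of all or of nuclear genes, only the groups compared, a replicate block, leaving out each library, and, chosen after seeing the data, the averaged training effect and leaving out the 3 libraries high in slow fiber markers or the 3 high in adipocyte markers. Named genes were all carbonic anhydrases, up to 3 called genes per list and comparison with the largest change, the first 3 markers of a cell type where given, and the genes most correlated with each member. Aph1a and Gm20518 were added after their overlap was found. The members and lists were chosen with earlier results of these data known. Sequences and positions were read from GENCODE M21 (GRCm38). The coding stretch of Car8 is not reported here.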

Additional observations from a re-analysis of the deposited data

How the results depend on the processing

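The Car3 genotype values, for which the gene was chosen, were negative in all 22 alternatives of each comparison, which is a description and no support for them. The Car2 call in sedentary libraries did not hold in 10 of 22, and the number of chosen genes called besides Car3 was then 0. Of these 10, 6 were fits that left out 1 library. The other 4 were scaling to the same sum of all genes, only the groups compared, and leaving out the 3 libraries high in slow fiber markers or the 3 high in adipocyte markers. For the trained comparison that number was 1 instead of 0 with a mean of at least 5 FPKM and with the same sum, and averaged training gave 1 (Car14) under both rescalings. Leaving out 1 library gave 0 to 1 in sedentary, 0 to 2 in trained and 0 to 1 in averaged training, and Car2 and Car4 were the 2 called in trained libraries, without trained labelled WT replicate 2. Car11 was called in sedentary libraries with a mean of at least 5 FPKM (-0.66). Without the 3 libraries high in adipocyte markers the trained calls of Slc16a3, Pccb and Mccc2 were lost (limma adjusted p = 0.108, 0.0957 and 0.267). So were those of Myl1, Tie1 and Mb, and the sedentary call of Cnp (limma adjusted p = 0.154, 0.186, 0.231 and 0.0516). Without the 3 high in slow fiber markers Mccc2, Myl1 and Col1a1 lost their calls (limma adjusted p = 0.124, 0.0898 and 0.171). Mb and Cnp then lost theirs in sedentary libraries (limma adjusted p = 0.0673 and 0.237).

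Counts over all genes followed the libraries used. With only the groups compared the sedentary comparison called 177 genes and the trained one 443, without the 3 libraries high in slow fiber markers 142 and 399, and without the 3 high in adipocyte markers 206 and 124. Leaving out 1 library gave 164 to 482 sedentary and 315 to 874 trained calls. The sedentary count fell to 164, 222 and 216 without sedentary labelled WT replicates 1, 2 and 3 and to 260 without sedentary labelled strNrip1-/- replicate 1. The trained count fell to 389 and 386 without trained labelled WT replicates 1 and 3 and to 334 and 315 without trained labelled strNrip1-/- replicates 2 and 3. Of the calls, 54.8% were higher in sedentary and 53.7% in trained libraries. These shares were 18.6% and 80.9% with the same sum of all genes, and 82.7% and 75.9% with the same sum of nuclear genes. Training in labelled WT called 8 genes under the minimum of 5 FPKM, 1 and 2 under the rescalings, 1 and 16 without the slow-high and adipocyte-high libraries, and 0 to 30 without 1 library. Training in labelled strNrip1-/- called 5, 150, 3 and, without the adipocyte-high libraries, 12, and 0 to 4 without 1 library. The interaction called 9 genes without the adipocyte-high libraries and 0 to 1 without 1 library. Averaged training called 26 with the same sum, 0 and 25 without the slow-high and adipocyte-high libraries, and 1 to 189 without 1 library.

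Whether replicate numbers pair the libraries was not settled. Deviations from the group means correlated between -0.10 and 0.24 in the 18 pairs with the same number, over 0.1 in 5. In the 36 pairs with another number they correlated between -0.25 and 0.20, over 0.1 in 3. Of the 12 libraries, 4 were closest to one with their own number. With a replicate block the sedentary comparison called 441 genes and the trained one 756, with 4 for training in labelled WT and 10 for averaged training, and no call changed among Car2, Car3, Car4, Car7, Car8, Car11 and Car14.

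The values below changed sign, and none of them was called. With the same sum the Car8 and Car14 sedentary genotype values were -0.11 and -0.042, Car3 training in labelled WT was -0.043, Car2 and Car11 training in labelled strNrip1-/- were 0.11 and 0.0047, and the Car2 interaction was 0.038. Without the slow-high libraries the Car8 sedentary genotype value was -0.013, the Car14 trained genotype value 0.0081, Car2 and Car8 training in labelled WT -0.076 and 0.13, Car2 training in labelled strNrip1-/- 0.068 and the Car2 interaction 0.14. Without the adipocyte-high libraries Car3 training in labelled WT was -0.23. Leaving out 1 library gave genotype values of -0.019 to 0.041 for Car8 in sedentary, and of -0.31 to 0.055 for Car8 and -0.41 to 0.0081 for Car14 in trained libraries. It gave training values in labelled WT of -0.014 to 0.28 for Car2, -0.23 to 0.35 for Car3 and -0.25 to 0.12 for Car8, and in labelled strNrip1-/- of -0.20 to 0.080 for Car2 and -0.35 to 0.0016 for Car11. The causes were not tested. Depth limits Car1, Car5a, Car12, Car13 and Car15 most, with at most 30.1 fragments in any library.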
